A study of Mus musculus with 8 samples.

Results

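The genes described here are 10 genes of glucose uptake and glycolysis in mouse retina: the glucose transporter Slc2a1, the hexokinases Hk1 and Hk2, the phosphofructokinases Pfkl and Pfkp, the aldolases Aldoa and Aldoc, the enolase Eno2, and the lactate dehydrogenases Ldha and Ldhb. They were taken by name from the table of array signals, each at its probe set with the highest mean signal, and are 10 of the 19938 genes compared. Retinas came from male adult C57BL/6 mice, listed as 6 weeks old at the start, for which the labels name no engineered allele. The mice received either saline or MPTP, with retinas taken at 1 week (7 days) or at 4 weeks (28 days). MPTP is a neurotoxin: dopamine neurons take up its metabolite, which blocks the first complex of mitochondrial respiration. Each of the 4 groups had 6 mice and 2 arrays, and each array carried RNA pooled from 4 retinas. The sources used here state neither the dose nor the route of MPTP. Whether the 2 pools of a group hold different mice is not stated either, so p-values measure only the spread between these arrays.

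The retina is known for aerobic glycolysis: its photoreceptors turn most of the glucose they take up into lactate even when oxygen is present, while their inner segments are also densely packed with mitochondria. Glucose enters through the transporter encoded by Slc2a1, hexokinase traps it, phosphofructokinase commits it to the pathway, aldolase splits the sugar, enolase makes phosphoenolpyruvate, and lactate dehydrogenase converts pyruvate to lactate and back. The A subunit of lactate dehydrogenase, encoded by Ldha, is associated with making lactate, and the B subunit, encoded by Ldhb, with using it. Several of these genes are classical targets of the hypoxia-inducible factors and of Myc.

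Promoter sequences are shown for 3 members: the promoters of Ldha and Eno2, because these genes had the lowest MPTP values, and that of Aldoa, the only other member whose MPTP arrays all lay below all saline arrays. The windows run from 250 bases before to 50 bases after the start of transcription in RefSeq's annotation of GRCm38.p6, and are printed 5′ to 3′ on the gene's own strand. Capitals mark ACGTG and GCGTG, the core letters bound by hypoxia-inducible factors and their dimers, on either strand (CACGT and CACGC on the other). ACGTG and CACGT together also form the E-box CACGTG bound by Myc, so these letters overlap with that motif.
Ldha, chr7:46845554-46845853, plus strand: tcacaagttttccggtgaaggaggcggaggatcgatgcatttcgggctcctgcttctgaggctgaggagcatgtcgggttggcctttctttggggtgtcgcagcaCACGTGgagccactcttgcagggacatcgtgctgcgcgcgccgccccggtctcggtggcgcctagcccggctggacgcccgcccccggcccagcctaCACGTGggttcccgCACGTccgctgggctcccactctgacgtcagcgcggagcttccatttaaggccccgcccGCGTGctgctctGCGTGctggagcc
Eno2, chr6:124769624-124769923, minus strand: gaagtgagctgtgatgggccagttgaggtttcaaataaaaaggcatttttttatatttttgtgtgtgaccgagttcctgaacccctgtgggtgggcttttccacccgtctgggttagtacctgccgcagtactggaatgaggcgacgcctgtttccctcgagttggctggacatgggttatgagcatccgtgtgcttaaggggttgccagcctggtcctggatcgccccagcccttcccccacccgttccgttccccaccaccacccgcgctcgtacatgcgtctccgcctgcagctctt
Aldoa, chr7:126799205-126799504, minus strand: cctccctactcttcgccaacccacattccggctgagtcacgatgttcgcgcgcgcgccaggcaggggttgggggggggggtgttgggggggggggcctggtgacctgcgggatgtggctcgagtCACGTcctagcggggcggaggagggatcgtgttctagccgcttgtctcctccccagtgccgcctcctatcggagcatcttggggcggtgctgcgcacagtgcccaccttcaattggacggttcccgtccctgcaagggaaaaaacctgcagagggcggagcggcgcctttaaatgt
Ldha has 2 such windows and Aldoa 3, and the ones printed were chosen after the matches had been seen. The Ldha window printed held 7 matches, which include both strands of 2 CACGTG palindromes. The other Ldha window held 2. The Eno2 window held 0, and the Aldoa window printed held 1, starting at position -126 from the start site. The other Aldoa windows held 1 and 0. The window with 1 overlaps the printed one, and its match is the same site. RefSeq gives 15 windows for the 10 members, of which 12 held a match, and 9 members had at least 1 such window. Of all 32851 windows of 300 bases in the table, 14380, or 43.8%, held one. A match describes letters and not binding, and its absence says only that these letters are not in this window.

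No gene passed an adjusted p under 0.05 (limma, Benjamini-Hochberg over all genes) in any of the 6 comparisons, so every difference below is a value with its standard error and not a call. Within that limit, Eno2 and Ldha stood lower in MPTP retinas than in saline retinas at both times, as did Aldoa by less, and Hk1 gave opposite values from its probe sets. Over both times Eno2 stood at -0.24 ± 0.08 (log2 fold change ± SE, 4 arrays against 4) and Ldha at -0.19 ± 0.06. Subunits of the respiratory chain stood slightly above saline, at a median of 0.07 over 71 genes.

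The arrays hold retina: rod photoreceptor markers had mean log2 signals of 11.23 to 11.37 on the 8 arrays, at a median percentile of 99.8 of all genes, over the 8 markers used. Skeletal muscle markers, a tissue with its own high glycolysis, had means of 6.57 to 6.77 (median percentile 32.5), and microglia means of 6.25 to 6.50. Lens and pigment epithelium markers were highest on MPTP 1 week array 2, at 8.33 and 7.83 against 7.18 to 7.92 and 7.16 to 7.65 on the others. On the first principal component (38.3% of the variance) saline 1 week array 2 and MPTP 1 week array 1 stood apart, at scores of 15.7 and 19.1 against -9.39 to -0.39 for the other 6. Its score correlated across the 8 arrays with Slc2a1 (r = 0.74), Pfkp (0.74), Hk2 (0.73), Aldoc (0.64) and Eno2 (0.53), and less with Ldha (0.29), as a description without a test. In such bulk samples fewer cells of a type and less RNA per cell cannot be told apart. No source used here states scan or hybridization batches.

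**Figure D1:**
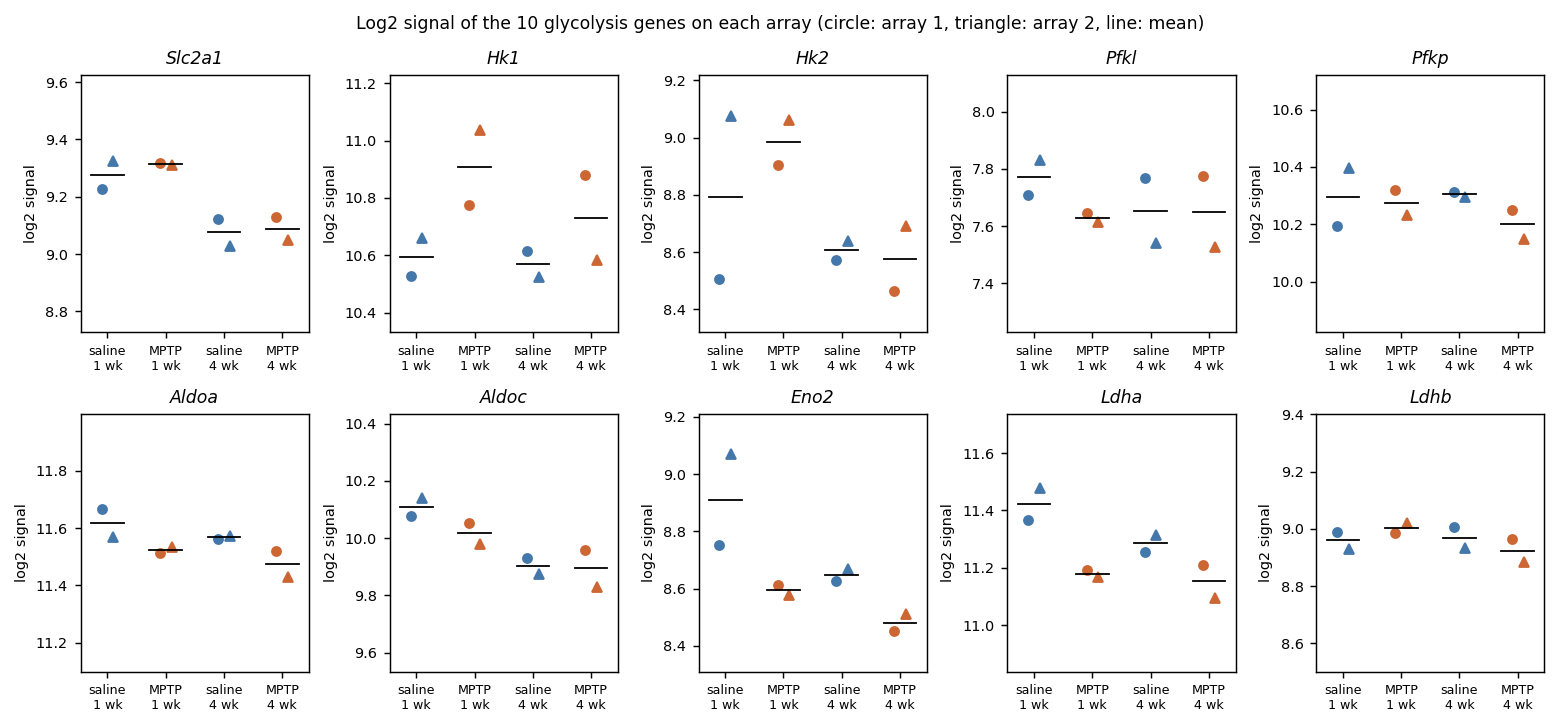
Log2 signal (vertical axis) of the 10 glycolysis genes on each array of the 4 groups (horizontal axis), with circles for array 1, triangles for array 2, blue for saline, orange for MPTP and a line at the mean of the 2 arrays. Eno2 and Ldha lie lower in MPTP than in saline at each time, and Slc2a1 and Aldoc lie lower at 4 weeks than at 1 week on every array.

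Eno2 (probe set 10547807; chr6:124760053-124769673 in GRCm38.p6) encodes gamma-enolase, the form of the enzyme that marks neurons. Its log2 signals were 8.75 and 9.07 in saline and 8.61 and 8.58 in MPTP at 1 week. At 4 weeks they were 8.63 and 8.67 in saline and 8.45 and 8.51 in MPTP. Every MPTP array lay below every saline array, narrowly so for MPTP 1 week array 1 (8.61) against saline 4 weeks array 1 (8.63). The widest gap was set by saline 1 week array 2, the highest of the 8. Over both times the mean was 8.78 ± 0.20 (SD, n = 4) in saline and 8.54 ± 0.07 (SD, n = 4) in MPTP. The log2 fold change was -0.32 ± 0.11 at 1 week and -0.17 ± 0.11 at 4 weeks (limma, adjusted p = 1.000 at each time). Over both times it was -0.24 ± 0.08, a signal 1.18-fold lower (limma, adjusted p = 0.973). Without saline 1 week array 2 it was -0.16 at 1 week and -0.16 over both times, so that array sets the size at 1 week. Over the 19 alternatives run over both times the fold change ran from -0.29 to -0.16, and the smallest adjusted p of any of them was 0.545. Leaving out arrays could not turn its direction, because every MPTP array lay below every saline array. Among the other settings only the rescalings could have done so.

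Ldha (probe set 10553301; chr7:46842274-46855627) gave a similar picture at a higher signal. In saline its log2 signals were 11.37 and 11.48 at 1 week and 11.26 and 11.32 at 4 weeks. In MPTP they were 11.19 and 11.17 at 1 week and 11.21 and 11.10 at 4 weeks. The highest MPTP array lay just below the lowest saline array, saline 4 weeks array 1. The mean was 11.35 ± 0.09 (SD, n = 4) in saline and 11.17 ± 0.05 (SD, n = 4) in MPTP. The log2 fold change was -0.24 ± 0.09 at 1 week and -0.13 ± 0.09 at 4 weeks (limma, adjusted p = 1.000 at each time). At 4 weeks it was -0.19 without MPTP array 1 and -0.08 without MPTP array 2. Over both times it was -0.19 ± 0.06, a signal 1.14-fold lower (limma, adjusted p = 0.973). Over the 19 alternatives it ran from -0.22 to -0.15, and it was -0.15 without saline 1 week array 2.

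Ldhb (probe set 10462035; chr6:142490249-142507957), the partner subunit, did not share this pattern. Its log2 signals ran from 8.88 to 9.02 over the 8 arrays, with saline and MPTP intermixed. The log2 fold change was 0.04 ± 0.09 at 1 week and -0.04 ± 0.09 at 4 weeks, and a further Ldhb probe set, 10549097, stood at 0.04 ± 0.07 over both times. The ratio of Ldha to Ldhb within each array, on the log2 scale, was 2.38 and 2.55 in saline and 2.21 and 2.15 in MPTP at 1 week. At 4 weeks it was 2.25 and 2.38 in saline and 2.24 and 2.21 in MPTP. All MPTP arrays were below all saline arrays, at 4 weeks by a narrow margin. The mean ratio differed by -0.19 between MPTP and saline over both times (two-sided exact permutation test over 70 splits that ignore time, p = 0.0286, adjusted over 4 pairs 0.114). That is the smallest p these 8 arrays can give, and after adjustment it does not pass. A pair that separates on its own among 4 could not pass, so this outcome decides nothing. Such a ratio can describe only unequal signal change of the subunits and not the level of one against the other.

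Among the aldolases, which cleave fructose bisphosphate, Aldoa (probe set 10568050; chr7:126795234-126800994) is the form of muscle and many other tissues and Aldoc that of brain and neural retina. Aldoa signals were 11.67 and 11.57 in saline and 11.51 and 11.53 in MPTP at 1 week. At 4 weeks they were 11.56 and 11.57 in saline and 11.52 and 11.43 in MPTP. The MPTP arrays were all below the saline arrays, by a gap smaller than the standard error of the difference, which was -0.09 ± 0.06 over both times (limma, adjusted p = 0.973). Aldoc (probe set 10379153; chr11:78323073-78327781) stood at -0.09 ± 0.09 at 1 week and -0.0091 ± 0.09 at 4 weeks. The ratio of Aldoa to Aldoc differed by -0.04 (exact permutation p = 0.543, adjusted 0.724).

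The phosphofructokinases Pfkl and Pfkp are the liver and platelet forms of the enzyme at the pathway's committed step. Pfkl (probe set 10370376; chr10:77986947-78009807) gave signals of 7.71 and 7.83 in saline and 7.64 and 7.62 in MPTP at 1 week, and 7.77 and 7.54 against 7.77 and 7.53 at 4 weeks. Its groups were apart at 1 week, by -0.14 ± 0.11, and overlapped at 4 weeks, at -0.0032 ± 0.11. Pfkp (probe set 10407481; chr13:6579874-6649060) ran from 10.15 to 10.40 and stood at -0.02 ± 0.10 at 1 week and -0.10 ± 0.10 at 4 weeks. At 4 weeks both MPTP arrays, 10.25 and 10.15, were below both saline arrays, 10.31 and 10.30. The ratio of Pfkl to Pfkp differed by -0.0095 between MPTP and saline, less than the spread between arrays (exact permutation p = 1), and by 0.03 after quantile normalization.

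Slc2a1 (probe set 10507594; chr4:119108745-119137330), the glucose transporter GLUT1, had log2 signals of 9.23 and 9.33 in saline and 9.32 and 9.31 in MPTP at 1 week. At 4 weeks they were 9.12 and 9.03 in saline and 9.13 and 9.05 in MPTP. The treatments overlapped at each time, with fold changes of 0.04 ± 0.09 at 1 week and 0.01 ± 0.09 at 4 weeks. Over both times it stood at 0.03 ± 0.06 (limma, adjusted p = 0.990). Hk2 (probe set 10545588; chr6:82725025-82774454), the inducible hexokinase that photoreceptors rely on for aerobic glycolysis, had signals of 8.51 and 9.08 in saline and 8.91 and 9.06 in MPTP at 1 week, and 8.57 and 8.64 against 8.46 and 8.69 at 4 weeks. Its saline arrays at 1 week were farther apart than any of its group means, and the fold change over both times was 0.08 ± 0.12. Without saline 1 week array 1 it was -0.05 over both times, and without array 2 it was 0.17.

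Hk1 encodes the hexokinase of most neurons (chr10:62268855-62379920), and its value depends on the probe set. The brighter one, 10414661, which the choice by highest mean takes, gave 10.53 and 10.66 in saline and 10.78 and 11.04 in MPTP at 1 week. At 4 weeks it gave 10.62 and 10.52 in saline and 10.88 and 10.58 in MPTP. The groups were apart at 1 week and overlapped at 4 weeks, and the log2 fold change was 0.31 ± 0.13 at 1 week and 0.24 ± 0.09 over both times (limma, adjusted p = 1.000 and adjusted p = 0.973). This probe set is annotated with 1 mRNA accession, and the same accession is listed for 16 of the 17 probe sets that name Rpl17, a protein of the large ribosomal subunit. The mean of those 16 was 10.78 and 10.74 in saline and 10.87 and 10.89 in MPTP at 1 week, and 10.73 and 10.73 against 10.82 and 10.72 at 4 weeks, where the treatments overlapped. Over the 8 arrays the Hk1 signal correlated with those 16 at a median r of 0.80 (range 0.32 to 0.90). The other Hk1 probe set, 10369541, lists that accession too, beside 2 curated RefSeq transcripts of Hk1, and correlated with them at a median r of -0.11 (range -0.60 to 0.04) and with the brighter Hk1 set at r = 0.27. Its signals were 9.59 and 9.87 in saline and 9.62 and 9.74 in MPTP at 1 week, and 9.75 and 9.68 against 9.70 and 9.62 at 4 weeks. There the treatments overlapped at both times, and the fold change was -0.04 ± 0.11 at 1 week, -0.05 ± 0.11 at 4 weeks and -0.05 ± 0.07 over both times. The ratio of Hk1 to Hk2 differed by 0.16 with the brighter set and -0.13 with the RefSeq set (exact permutation p = 0.514 and 0.4).

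**Figure D2:**
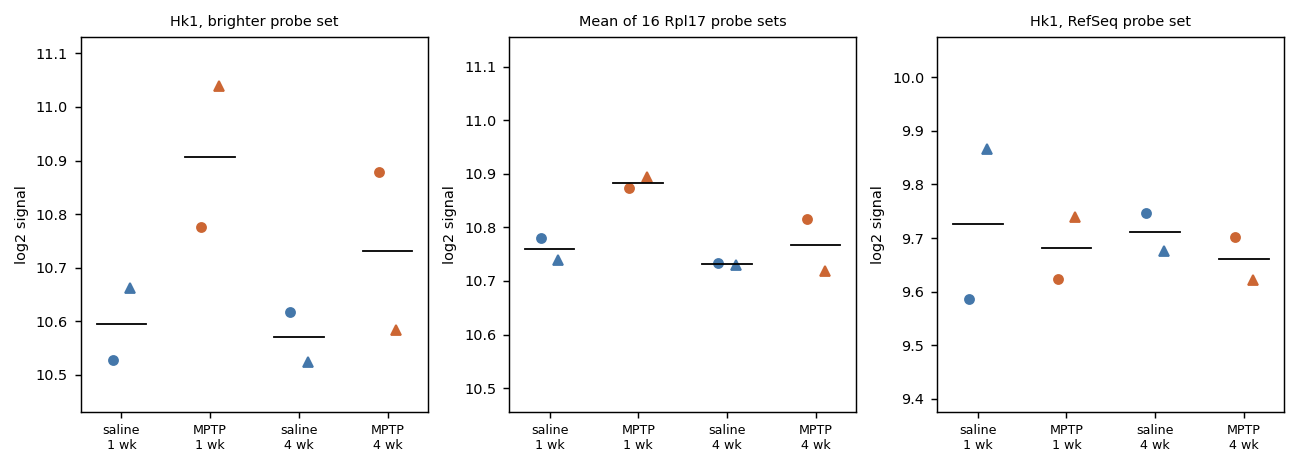
Log2 signal (vertical axis) on each array of the 4 groups for the brighter Hk1 probe set, for the mean of the 16 Rpl17 probe sets that share its accession, and for the Hk1 probe set with RefSeq transcripts, with circles for array 1, triangles for array 2 and lines at group means. In the left and middle panels the MPTP arrays at 1 week are the highest group (10.78 and 11.04, and 10.87 and 10.89), which the right panel does not show.

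Counted together at 1 week, 4 members stood above 0 and 6 below (46.9% of all genes stood above), with a median of -0.06 against -0.0081 over all genes. That median was -0.11 without saline 1 week array 1 and -0.02 without MPTP 1 week array 2. At an unadjusted p under 0.05, Hk1 was higher and Eno2 and Ldha were lower, which makes 3 of 10 against 4.22% of all genes, 1.87% higher and 2.36% lower (2 of 10 with Hk1 at its RefSeq probe set). Groups did not overlap for 6 members (1 higher, 5 lower), against 26.3% of all genes, 12.5% higher and 13.8% lower. At 4 weeks 2 members stood above and 8 below (51.8% of all genes above), with a median of -0.04 against 0.0043 (-0.11 without MPTP 4 weeks array 1 and -0.01 after quantile normalization), and none had an unadjusted p under 0.05, against 1.91% of all genes. Groups did not overlap for 4 members, all lower in MPTP (Pfkp, Aldoa, Eno2 and Ldha), against 35.3% of all genes and 17.9% lower. Over both times 3 stood above and 7 below (49% of all genes above), with a median of -0.06 against -0.0017. Hk1, Eno2 and Ldha were again those with an unadjusted p under 0.05, against 4.76% of all genes, 2.3% higher and 2.47% lower. All these counts take Hk1 at its brighter probe set. At its RefSeq probe set Hk1 stood below 0 in each comparison of MPTP with saline. There its groups overlapped at 1 week, and no unadjusted p was under 0.05 (limma). Aldoa, Eno2 and Ldha were lower on all 4 MPTP arrays than on all 4 saline arrays, against 2.5% of all genes without overlap and 1.49% lower without overlap. The members and lists were chosen with earlier results of these data known. These counts and later ones are therefore descriptions and test no set.

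The effects at 4 weeks and at 1 week were set against each other directly. The difference of the MPTP effects ran from -0.22 ± 0.23 for Hk2 to 0.15 ± 0.16 for Eno2 and was 0.11 ± 0.13 for Ldha. For Hk2 it was 0.06 without saline 1 week array 1, -0.50 without saline 1 week array 2 and -0.58 without the 2 arrays that stand apart. None of the 10 members had an unadjusted p under 0.05, against 1.96% of all genes, and every adjusted p was 1.000 (limma). A smaller effect at 4 weeks than at 1 week was therefore not shown for Eno2 or Ldha, and the difference for Eno2 was -0.0081 without saline 1 week array 2.

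**Figure D3:**
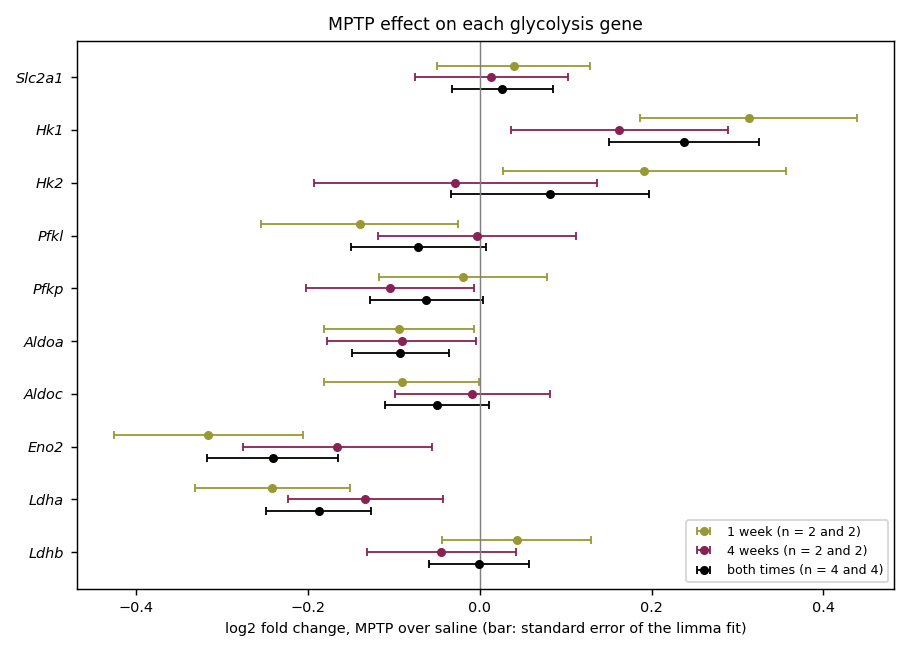
Log2 fold change of MPTP over saline (horizontal axis) for each of the 10 genes at 1 week, at 4 weeks (2 arrays against 2) and over both times (4 against 4), with bars of 1 standard error of the limma fit. Eno2 (-0.24 over both times) and Ldha (-0.19) lie to the left of 0 with all 3 estimates, and Hk1 at its brighter probe set (0.24) lies to the right, while Hk2 (0.19) and Pfkl (-0.14) lie away from 0 at 1 week and near it at 4 weeks.

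Time gave differences of similar size in animals without the toxin. Time after treatment and age of the animals run together here and cannot be told apart. From 1 to 4 weeks in saline, 8 of 10 members stood lower (50.6% of all genes stood higher), at a median of -0.13 against 0.0012 over all genes. Slc2a1 stood at -0.20 ± 0.09, Aldoc at -0.20 ± 0.09 and Eno2 at -0.26 ± 0.11, the 3 members with an unadjusted p under 0.05, against 2.13% of all genes and 1.25% lower (limma, adjusted p = 1.000 for each). In MPTP animals 9 of 10 stood lower (53.3% of all genes higher), at a median of -0.10 against 0.01. The members are bright, at a median percentile of 95.0 of mean signal. Genes above percentile 50 had medians of -0.02 in saline and -0.06 in MPTP, so part of this fall is shared by bright genes. Hk2 at -0.41 ± 0.16 and Slc2a1 at -0.23 ± 0.09 had an unadjusted p under 0.05, against 9.79% of all genes and 4.36% lower (limma, adjusted p = 0.507 for both). Slc2a1 and Aldoc were lower on all 4 of the 4-week arrays than on all 4 of the 1-week arrays, against 3.84% of all genes. For Aldoc the 1-week signals were 10.08, 10.14, 10.05 and 9.98 and the 4-week signals 9.93, 9.88, 9.96 and 9.83. In MPTP animals the size of these differences depended on how arrays are scaled. There the median of the members moved to 0.01 after quantile normalization and 0.0059 after cyclic loess. Ldha moved from -0.03 to 0.07 after cyclic loess, while Slc2a1 stayed below 0, at -0.10 after quantile normalization. In saline the median of the members ran from -0.19 to -0.07 over 20 alternatives, with both ends set by arrays left out. Both arrays that stand apart on the first principal component are 1-week arrays, and their part in the differences with time was not tested. Without them Eno2 stood at -0.10 and Slc2a1 at -0.15 in saline.

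The members varied together to different degrees over the 8 arrays, which share groups and scaling, so these correlations are a description. The highest of all pairs was Eno2 with Ldha (r = 0.90), followed by Slc2a1 with Aldoc (r = 0.86) and Aldoa with Ldha (r = 0.75). The lowest was Hk1 at its brighter probe set with Ldha (r = -0.40). Among 9482 genes searched, the signals most like that of Eno2 were Pank3 (r = 0.99), Rab11b (0.99), Cyb5d1 (0.98), Ppp5c (0.98) and Prkab1 (0.98). Pank3 encodes a pantothenate kinase of coenzyme A synthesis, Rab11b a small GTPase of recycling endosomes, and Prkab1 a subunit of AMP-activated kinase. The most like Ldha were Rwdd4a (r = 0.99), Mfsd14a (0.98), Ptges3 (0.98), Nrn1 (0.98) and Fndc3b (0.97). Each gene named as most like Eno2 or Ldha was highest on saline 1 week array 2, as were Eno2 and Ldha, so that array weighs on these correlations. Nrn1, which encodes the neurite growth factor neuritin, stood at -0.30 ± 0.08 over both times, and the chaperone partner Ptges3 at -0.19 ± 0.06. Both were picked for their likeness to Ldha on these same arrays, so lower values in MPTP follow from that choice and are no separate result.

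Of the other glycolysis and lactate genes, 23 of 29 were measured alone, with 8 above and 15 below 0 over both times and a median of -0.02. Gapdh, Eno1 and Gpi1 were not measured alone. The only gene of this list with an unadjusted p under 0.05 was Slc16a1 (1 of 23, a share near the 4.76% of all genes), which encodes the monocarboxylate transporter MCT1 that carries lactate across membranes. Its signals were 8.32 and 8.74 in saline and 8.31 and 8.26 in MPTP at 1 week, and 8.39 and 8.42 against 8.16 and 8.28 at 4 weeks. All MPTP arrays were below all saline arrays, at 1 week by a narrow gap, and the fold change over both times was -0.21 ± 0.09 (limma, adjusted p = 0.973). Adpgk, an ADP-dependent glucokinase, stood at -0.12 ± 0.06 and Bpgm, which makes bisphosphoglycerate, at 0.13 ± 0.07.

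The enzymes between the members were added outside the rule for named genes, after values had been seen. Tpi1, triose phosphate isomerase, stood at 0.05 ± 0.08 over both times, Pgk1, phosphoglycerate kinase, at 0.04 ± 0.06 and Pgam1, phosphoglycerate mutase, at -0.02 ± 0.06. Pkm, the pyruvate kinase of neural tissue, stood at -0.10 ± 0.06 and Pfkm, the muscle form of phosphofructokinase, at -0.05 ± 0.06. Bsg, the chaperone that brings MCT1 to the cell surface, stood at -0.10 ± 0.06. Its saline signals were 9.91, 9.93, 9.95 and 9.96 and its MPTP signals 9.87, 9.73, 9.87 and 9.89, so its groups did not overlap. Slc2a3, the neuronal glucose transporter, stood at -0.0046 ± 0.06 and the muscle enolase Eno3 at -0.04 ± 0.09. No member of this list passed the adjusted threshold.

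**Figure D4:**
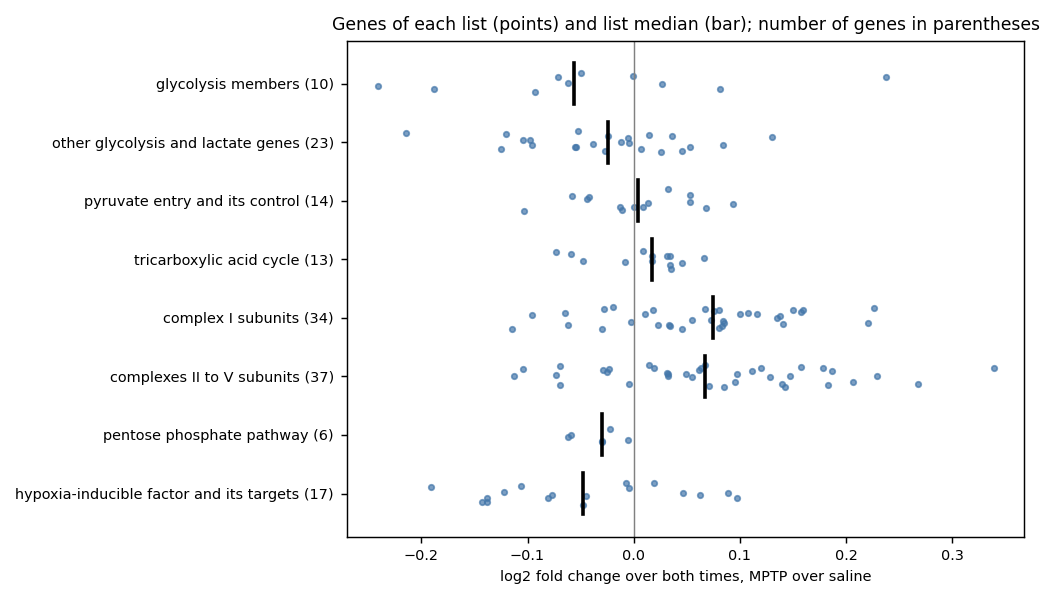
Log2 fold change of MPTP over saline over both times (horizontal axis) for each measured gene of 8 lists (rows, number of genes in parentheses), with a bar at the list's median. The glycolysis list has a median of -0.06 and the respiratory lists medians of 0.07, and the points of all lists overlap.

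Respiration stood on the other side of 0, by a small amount. Of 71 measured subunits of complexes I to V, 54 stood above 0 and 17 below over both times, at a median of 0.07, against 49% of all genes above 0. An unadjusted p under 0.05 was found for 12, all higher, against 2.3% of all genes that were higher. At 1 week 52 stood above 0 and at 4 weeks 53, with medians of 0.07 and 0.06, the latter 0.02 without MPTP 4 weeks array 1. Over the 19 alternatives the median over both times stayed between 0.05 and 0.09, and that of the 10 glycolysis genes between -0.08 and -0.03. Uqcrh, the hinge subunit of complex III, stood at 0.34 ± 0.07, with saline signals of 10.74, 10.52, 10.57 and 10.41 and MPTP signals of 10.97, 11.01, 10.84 and 10.78. Its groups did not overlap. Uqcrb of complex III stood at 0.27 ± 0.07, Cox6c of complex IV at 0.21 ± 0.06, and Ndufb5, Ndufs4 and Ndufc1 of complex I, the complex that the MPTP metabolite inhibits, at 0.23 ± 0.07, 0.16 ± 0.06 and 0.16 ± 0.07. With time the subunits stood lower: 67 of 71 in saline at a median of -0.13, and 65 of 71 in MPTP at -0.11, while 50.6% and 53.3% of all genes stood higher. Genes above percentile 50 of mean signal had medians with time of -0.02 in saline and -0.06 in MPTP. After cyclic loess the median in MPTP was -0.02 for all 71 and 0.0063 for complexes II to V, so this difference too depends on scaling. In saline the median was -0.08 without saline 4 weeks array 2.

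Between glycolysis and the chain, the groups stood near 0. For pyruvate entry into mitochondria and its control, 7 of 14 genes were above 0 at a median of 0.0043. Pdha1, the catalytic subunit of pyruvate dehydrogenase, stood at -0.10 ± 0.06, Pdk3, a kinase that inhibits it, at 0.09 ± 0.07, and Dlat, its acetyltransferase core, at 0.07 ± 0.06. For the tricarboxylic acid cycle 9 of 13 were above 0 at a median of 0.02, with the succinate-CoA ligase subunits Sucla2 at -0.07 ± 0.06 and Suclg2 at 0.07 ± 0.08 and the isocitrate dehydrogenase subunit Idh3b at -0.06 ± 0.06. None of these had an unadjusted p under 0.05.

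For each array the mean deviation of the glycolysis genes from their own average, with Hk1 read at its RefSeq probe set, was set against that of complexes I to V. The difference, glycolysis minus respiration, was -0.03 and 0.16 in saline and -0.05 and -0.10 in MPTP at 1 week. At 4 weeks it was 0.05 and 0.09 in saline and -0.06 and -0.05 in MPTP. The MPTP arrays were all below the saline arrays, with saline 1 week array 1 lying nearest to them. With Hk1 at its brighter probe set, the one the choice by highest mean takes, saline 1 week array 1 (-0.0390) and the highest MPTP array (-0.0400) nearly met. After cyclic loess they overlapped, with the lowest saline array at -0.0416 and the highest MPTP array at -0.0396. With Hk1 left out, the saline arrays ran from -0.02 to 0.16 and the MPTP arrays from -0.10 to -0.04. Still without Hk1, after quantile normalization these ranges were -0.02 to 0.16 and -0.11 to -0.04, and after cyclic loess -0.02 to 0.17 and -0.11 to -0.04. These are descriptions of the arrays, since the genes of both groups were chosen with earlier values known.

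**Figure D5:**
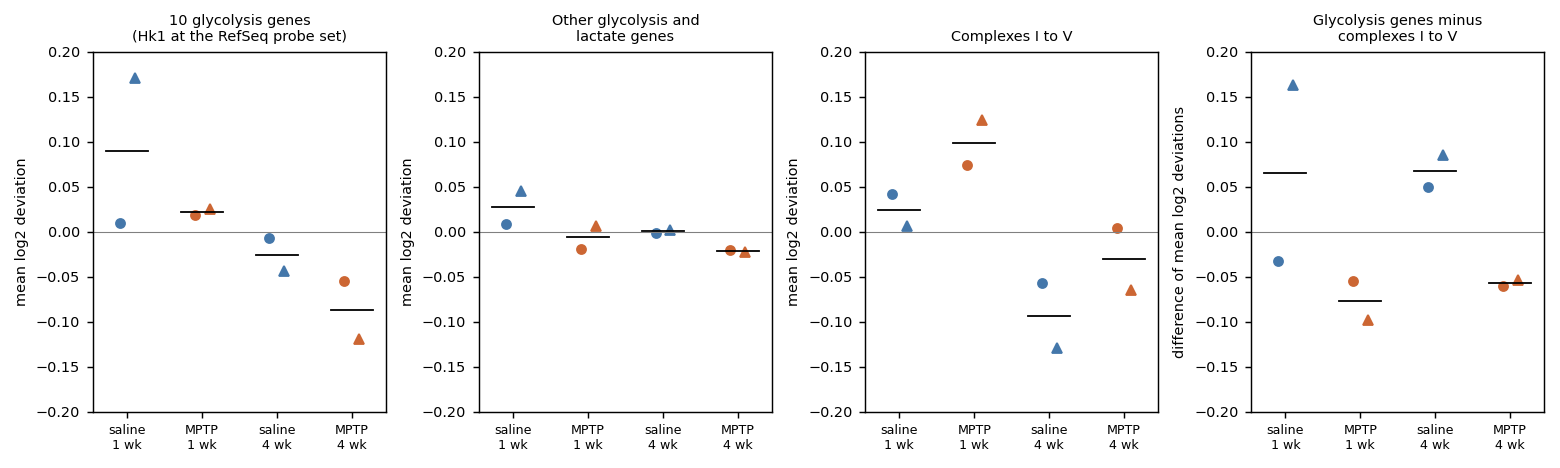
Mean log2 deviation from each gene's average over the 8 arrays (vertical axis) on each array for the 10 glycolysis genes (Hk1 at its RefSeq probe set), the 23 other glycolysis and lactate genes and the 71 subunits of complexes I to V, and in the right panel the first minus the third, with circles for array 1, triangles for array 2 and lines at group means. In the right panel the MPTP arrays lie between -0.10 and -0.05 and the saline arrays between -0.03 and 0.16, a separation that is lost after cyclic loess with Hk1 at its brighter probe set.

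Of the genes of the hypoxia-inducible factors and their targets, 17 of 17 were measured, with 5 above and 12 below 0 over both times and a median of -0.05 (-0.10 to -0.02 over the alternatives), against 49% of all genes above. At 4 weeks 4 were above and 13 below, against 51.8% of all genes above, at a median of -0.11, or -0.06 without MPTP 4 weeks array 1. Ndrg1, a stress-responsive gene induced by hypoxia, stood at -0.19 ± 0.07 over both times (limma, adjusted p = 0.973). Its signals were 8.84 and 8.91 in saline and 8.79 and 8.56 in MPTP at 1 week, and 8.83 and 8.92 against 8.61 and 8.77 at 4 weeks, with no overlap. Of the 17, only Ndrg1 had an unadjusted p under 0.05 (limma), against 4.76% of all genes. Vegfa, the vascular growth factor, also had no overlap, at -0.14 ± 0.07, while 1.49% of all genes were lower without overlap. Its saline signals were 8.78, 8.77, 8.76 and 8.78. Its MPTP signals were 8.70, 8.73, 8.43 and 8.69, with MPTP 4 weeks array 1 far the lowest. Mxi1, a Myc antagonist, stood at -0.14 ± 0.07. In the pentose phosphate pathway, which branches from glucose 6-phosphate, 6 of 6 measured genes were below 0 over both times and 4 of 6 at each time. The median over both times was -0.03, or -0.0098 (3 above and 3 below) without the 2 arrays that stand apart, with Tkt at -0.06 ± 0.06, Pgd at -0.06 ± 0.06 and Rpe at -0.03 ± 0.06.

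Markers of Mueller glia, which exchange lactate with photoreceptors, were highest on saline 1 week array 2 (mean signal 9.08 against 8.87 to 8.98 on the others), the same array that was highest for Eno2, Ldha and Slc16a1. Of the 10 Mueller markers 4 stood above and 6 below 0 over both times, at a median of -0.05. Ganglion and amacrine cell markers, neurons in which Eno2 is also expressed, had means of 8.76 to 8.87. They too were highest on saline 1 week array 2, and 4 of 9 stood above 0 at a median of -0.03. Rod markers stood above 0 in 6 of 8, at a median of 0.02. The part of these markers in the values of Eno2 and Ldha was not tested.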

How the data were processed

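The deposited values are log2 signals of 28944 probe sets on 8 Affymetrix arrays, which the authors computed by RMA in Affymetrix Expression Console (versions not stated), according to the submitters' processing notes. RMA as usually run corrects background, normalizes between arrays and summarizes the probes of each set; the interquartile range of the deposited values, over the genes compared, still ran from 1.65 to 1.92. Per the labels' protocols, 100 ng of total RNA was amplified with the SPIA method and labelled with biotin. For arrays, their number limits the precision.

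Probe sets were named by the platform annotation: 21789 name exactly 1 gene, and the brightest per gene left 19938 genes, with no filter on dim signals. The model for each gene was that of limma 3.58.1 under R 4.3.3 (lmFit, contrasts.fit, eBayes, two-sided), with 1 mean per group (4 residual degrees of freedom) for single times and with additive time and treatment (5 residual degrees of freedom) over both times. The p-values were adjusted by Benjamini-Hochberg over all genes, threshold 0.05. Paralog ratios were compared by exact permutation over 4 against 4 arrays, without a term for time.

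The members and lists were chosen with earlier results of these data known. All members are named; from other lists, the 3 genes with the smallest p over both times; for Eno2 and Ldha, the 5 most correlated genes above percentile 50 of mean signal, passing over predicted-model, clone and olfactory or vomeronasal receptor names. All 10 members have promoter windows in RefSeq. The alternatives were quantile, median and cyclic loess scaling, a filter on dim genes, other probe sets per gene, eBayes with trend and robust settings, only the groups compared, an array-number block and arrays left out. Added after the data were seen were Hk1 at its RefSeq probe set and a block with exchanged numbers. The code was tested on simulated data. Figures were drawn with matplotlib 3.10.9.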

Additional observations from a re-analysis of the deposited data

Results flagged for a closer look

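The Aldoa signal of saline 1 week array 1, 11.67, lay farther from the other 3 saline arrays (11.56 to 11.57) than Dixon's critical value of 0.829 of the group's range allows. It was the only such value among 20 groups of 4 arrays (each of the 10 genes in saline and in MPTP), where chance gives about 1 in 20. Without this array Aldoa stood at -0.07 over both times.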

How the results depend on the processing

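No gene of the 19938 passed an adjusted p under 0.05 with limma in the fits the report gives, while 842, 381 and 950 genes had an unadjusted one under 0.05 at 1 week, at 4 weeks and over both times. Hk1 changed direction at its dimmer probe set, which is the RefSeq one (-0.045 at 1 week and -0.047 over both times), and with it the Hk1 to Hk2 ratio (-0.13). The Pfkl to Pfkp ratio turned above 0 with quantile normalization (0.027), cyclic loess (0.014), without the 2 arrays that stand apart (0.024) and without single arrays (range -0.065 to 0.025). The members' median moved at 4 weeks with quantile normalization (-0.010), with cyclic loess (-0.011) and with single arrays left out (range -0.11 to -0.025). The median difference of effects moved to 0.054 with quantile normalization, and the median for time in MPTP moved to 0.011 with quantile normalization and 0.0059 with cyclic loess, and ran from -0.12 to -0.033 without single arrays. The cause of these moves was not tested. For time in MPTP, 1 gene passed an adjusted p under 0.05 without MPTP 1 week array 1, and 1 without the 2 arrays that stand apart, neither of them among the 10 members. The difference of array 2 and array 1 correlated between groups at -0.38 to 0.21, which cannot settle whether the array numbers pair the samples. The 2 arrays that stand apart carry different numbers. With the number as a replicate block, 713, 304 and 880 genes had an unadjusted p under 0.05 and 0 an adjusted one (in this balanced design a block leaves every fold change as it was). Exchanging the numbers of MPTP 1 week gave 947, 453 and 1092 genes.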
